A study of Homo sapiens with 12 samples.

Results

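Glutathione, thioredoxin and the enzymes that supply NADPH form the main system by which a cell keeps its thiols reduced and removes peroxides. The members described here are 39 human genes of that system, taken by symbol from a table of 60707 genes, and all 39 were found. They fall into a glutathione arm of 16 genes, a thioredoxin and peroxiredoxin arm of 9, the superoxide dismutases with catalase (3), a pentose phosphate arm of 6 and 5 other NADPH-supplying dehydrogenases. The rule used symbols alone, but the members were chosen with earlier results of these data known.

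RNA was sequenced from Raji, an established human Burkitt lymphoma B-cell line, in 12 libraries at 24 h. The 4 groups of 3 libraries are GFP-high DMSO, GFP-high FX1, GFP-low DMSO and GFP-low FX1. FX1 is a small-molecule inhibitor of BCL6, a transcriptional repressor of germinal-centre B cells, and DMSO is its solvent; the titles call the DMSO libraries untreated. The cells belong to an auxin-inducible degron system for the chromatin remodelling ATPase SMARCA4, every library carries the genotype Smarca4+/+, and neither the link between GFP and SMARCA4 protein nor any auxin treatment is stated in the labels. Groups are therefore named by gate and treatment alone. Separate cultures are not stated for the 3 libraries of each group, so every p-value reflects the spread among these libraries alone, and that spread may be technical.

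The glutathione arm makes and uses a small thiol peptide. Glutamate-cysteine ligase and glutathione synthetase build it, peroxidases and transferases spend it, and glutathione reductase restores it with NADPH. Thioredoxin and the peroxiredoxins form a parallel chain, in which thioredoxin reductase draws on the same NADPH. In the cytosol that NADPH comes chiefly from the oxidative pentose phosphate pathway and from malic enzyme 1 and isocitrate dehydrogenase 1, and in mitochondria from isocitrate dehydrogenase 2 and the transhydrogenase NNT.

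Under FX1, most members of the thioredoxin and peroxiredoxin arm and of the pentose phosphate arm were higher, and all tested members among the other NADPH-supplying dehydrogenases were lower, in both gates. The largest rises among members were in TALDO1, GCLC, GSR, TXNRD2, GPX1 and PRDX1, at 1.65- to 2.05-fold in GFP-high cells. IDH2, the mitochondrial isocitrate dehydrogenase, was 2.15-fold lower in GFP-high and 2.35-fold lower in GFP-low cells. The largest differences between the gates, leaving GSTP1 aside, were smaller than the largest FX1 changes and went in both directions. For some members, such as GLRX5, the gate difference was the larger, at -0.36 under DMSO against FX1 changes of -0.28 and -0.19. Under FX1, 10 members were higher in GFP-low cells and 20 lower without GSTP1, beside 30.2% and 26.7% of all genes.

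Total counts per library lay between 20454028 and 42556661, and all 12 replicate pairs within groups differed by more than sampling noise (chi-square per degree of freedom 1.67 to 1.95 over genes). Levels are counts scaled to a common library size (CPM) with factors from the trimmed mean of M values (TMM). All 8 B-cell markers were detected, summing to 1.95e+03 to 3.4e+03 CPM per library, highest in GFP-high DMSO and lowest in GFP-low FX1. The 8 T and NK markers summed to 5.23 to 27 CPM, the 6 myeloid markers to 2.07 to 6.44 CPM and the 6 epithelial and stromal markers to 8.15 to 17.3 CPM, with KRT18 at 0. LCK was the largest part of the T and NK sum, and COL1A1 made up nearly all of the epithelial and stromal sum. The mitochondrial share of counts was 7.84% to 7.908% in GFP-high DMSO and 4.234% to 5.126% in the other 3 groups. With mitochondrial and very abundant genes left out before scaling, the FX1 calls of members changed for PRDX6 (lost) and GLRX3 (gained), both in GFP-low cells. SMARCA4 RNA measured 376 to 401 CPM in the DMSO groups, 386 to 391 CPM in GFP-high FX1 and 452 to 460 CPM in GFP-low FX1, which does not check the protein. In bulk RNA, fewer cells of a type and less RNA per cell cannot be told apart.

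Of the 39 members, 36 passed the filter on low counts. GPX7, MGST2 and ME1 did not, with 0 to 2 counts in every library. Malic enzyme 1 was thus not detectable above that level here, while ME2, the mitochondrial NAD-preferring form, was abundant. GSTP1 passed through a few libraries, mostly those of GFP-high DMSO. It had 18, 12 and 19 counts there, 13, 1 and 1 in GFP-high FX1, 13, 7 and 6 in GFP-low DMSO and 1, 0 and 0 in GFP-low FX1. The test called GSTP1 lower under FX1 in both gates, but its fitted changes rest on these few counts and are not read further, and the medians below are given without it.

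The promoters of the members were searched for 2 short motifs in the stretch from 250 bases before to 50 bases after each RefSeq start site (GRCh38.p14). The motifs were TGACNNNGC, the core of the antioxidant response element bound by NRF2, and TTCCTNGAA, the core of a BCL6 site, on both strands and with no overlap between the 2 patterns. A promoter was matched for 31 of 39 members; GSS, GSR, MGST2, GLRX3, TXN2, PRDX1, PRDX6 and SOD1 had none in the table. The windows below show where the motif sits in the gene's own 5′ to 3′ direction, with the motif in capitals. In PGD and GCLM the capitals read as the reverse complement. For the partner genes TXNRD1 and GCLM 1 window each is shown; TXNRD1 has 2 further antioxidant cores and GCLM also has a BCL6 core. The windows of GSTP1 and ME1 are not shown.
GSTO1, chr10:104254656-104254684, plus strand: ggcggagggaTGACTGAGCatttataact
GSTO1, chr10:104254721-104254749, plus strand: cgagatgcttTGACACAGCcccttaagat
PGD, chr1:10398853-10398881, plus strand: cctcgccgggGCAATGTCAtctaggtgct
RPE, chr2:210002477-210002505, plus strand: ggcggacggcTGACAGCGCcccaccccag
IDH1, chr2:208255196-208255224, minus strand: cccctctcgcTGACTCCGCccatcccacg
TXNRD1, chr12:104215670-104215698, plus strand: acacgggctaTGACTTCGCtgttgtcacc
GCLM, chr1:93909446-93909474, minus strand: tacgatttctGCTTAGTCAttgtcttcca
RPIA (BCL6 core), chr2:88691556-88691584, plus strand: cagataggggTTCCTCGAAgccacagaac

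The antioxidant core was present in 6 of 43 member promoters (14%) and in 4687 of 35116 promoters overall (13.3%), so the shares were close. By gene, 6 of 31 members held it (19.4%), against 4384 of 27305 genes (16.1%). Those 6 were GSTP1, GSTO1, PGD, RPE, ME1 and IDH1. Under FX1 in both gates GSTO1 and PGD were higher and IDH1 lower. The BCL6 core was found in 1 member promoter, that of RPIA (2.33% of member promoters, 1.56% of all). A match is a description of these letters and not a binding site.

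With FX1 in GFP-high cells, 21 of the 36 tested members were higher, 10 lower (9 without GSTP1) and 5 were not called (edgeR quasi-likelihood test, Benjamini-Hochberg adjusted p under 0.05 over all 17859 tested genes). Calls were common in this comparison. Over all tested genes 68.4% were called, 33.8% higher and 34.6% lower. These include many genes with fewer counts than most members have. Of the 12809 genes with at least 50 counts in 3 libraries, 4988 were higher and 5133 lower, a larger share called. Shares without overlap are given over all tested genes only. The groups did not overlap in 30 members (29 without GSTP1), against 70.2% of all genes. The median log2 change was 0.15 over the 35 members without GSTP1 and -0.01 over all genes. A fold of at least 2 with a call was seen for TALDO1 among the higher (5.89% of all genes) and, leaving GSTP1 aside, for IDH2 among the lower (11.1%).

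With FX1 in GFP-low cells, 20 members were higher, 11 lower (10 without GSTP1) and 5 were not called, beside 68% of all genes called (33.7% higher, 34.3% lower). Between these groups 32 members did not overlap (31 without GSTP1), against 69.6% of all genes. Of the 12809 genes with at least 50 counts in 3 libraries, 5134 were higher and 5095 lower. The median was 0.11 without GSTP1 and -0.01 over all genes. A fold of at least 2 with a call was seen for 0 members among the higher (6.41% of all genes) and, leaving GSTP1 aside, for IDH2 among the lower (9.04%). In both gates 19 members were higher, against 26.2% of all genes, and 7 lower (6 without GSTP1), against 26.5%.

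**Figure D1:**
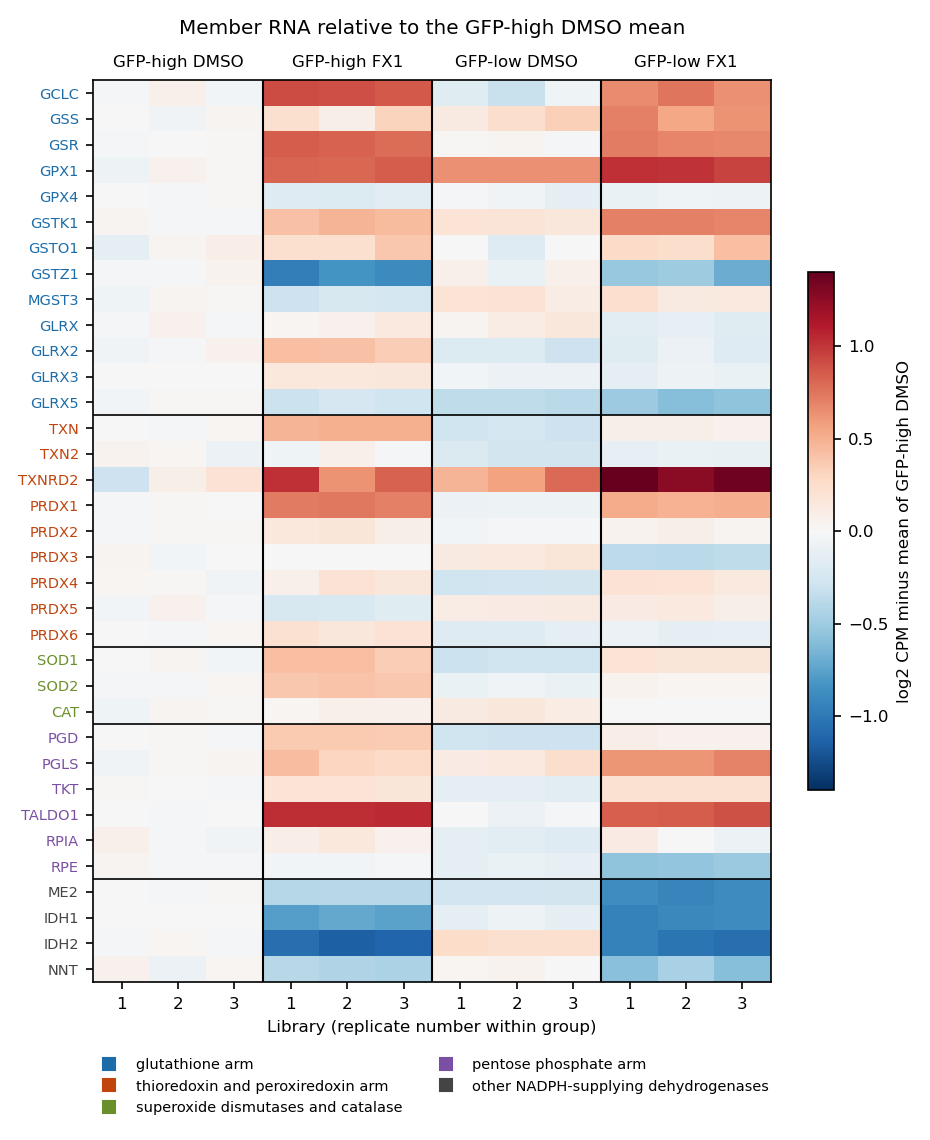
Heat map of the 35 tested members without GSTP1 (rows, coloured by arm) in the 12 libraries (columns, by group and replicate number), as log2 CPM minus the mean of the 3 GFP-high DMSO libraries, on a colour scale that ends at 1.4 in either direction. TALDO1, GCLC, GSR and PRDX1 are red in all 6 FX1 libraries and IDH1, IDH2, ME2 and NNT blue, while GPX1 and TXNRD2 are also red in the GFP-low DMSO libraries.

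Differences between the arms were not tested. Each is described by its counts, beside all genes at 33.8% higher and 34.6% lower in GFP-high cells. In GFP-low cells these shares were 33.7% and 34.3%. In the glutathione arm without GSTP1, 8 of 13 tested members were higher and 4 lower with FX1 in GFP-high cells, and 6 higher and 3 lower in GFP-low cells. Its median was 0.22 and 0.07 on the log2 scale. In the thioredoxin and peroxiredoxin arm, 6 of 9 were higher and 1 lower in GFP-high cells, and 7 higher and 1 lower in GFP-low cells, with a median of 0.14 in each. With a trend on GC content and gene length removed, 7 of these 9 were higher and 1 lower in GFP-high cells. In GFP-low cells 5 were then higher and 3 lower.

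In the pentose phosphate arm, 5 of 6 were higher and 0 lower in GFP-high cells (median 0.26), and 5 higher and 1 lower in GFP-low cells (median 0.36). RPE, the epimerase, was the exception in both. With the trend on GC content and gene length removed, the medians were 0.19 and 0.22. In GFP-high cells TKT was then the member not called, in place of RPE. All 4 tested members among the other NADPH-supplying dehydrogenases were lower in both gates, with medians of -0.58 and -0.72. Of the 9 members listed as mitochondrial (TXN2, TXNRD2, PRDX3, SOD2, GLRX2, GLRX5, ME2, IDH2 and NNT), 3 were higher and 4 lower in GFP-high cells, beside 33.8% and 34.6% of all genes, and 3 higher and 5 lower in GFP-low cells, beside 33.7% and 34.3%. The share of risers was near that of all genes and the share of fallers was larger, on only 9 genes and without a test. Members found in several compartments, such as GSTK1 (mitochondria and peroxisomes), were not on that list.

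Summed over its members, the pentose phosphate arm held 1369 to 1394 CPM in GFP-high DMSO, 1795 to 1809 in GFP-high FX1, 1213 to 1219 in GFP-low DMSO and 1581 to 1596 in GFP-low FX1. The other NADPH-supplying dehydrogenases held 545 to 556, 381.1 to 381.9, 501.9 to 507 and 301.6 to 303.4 CPM in the same order. The FX1 groups lay above the DMSO groups of the same gate in the first sum and below them in the second. PGD and TKT make up most of the first sum and ME2 most of the second. ME2 is the NAD-preferring form, so the second sum is not a measure of RNA for NADPH supply alone.

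Levels per kilobase of exon, averaged over the 12 libraries, put PRDX1 first at 307 CPM per kb. PGD followed at 197 and TXN at 188 CPM per kb, although in GFP-high FX1 TXN (246) and PGD (244) were level. SOD1 (89.4), TALDO1 (86.4), PRDX2 (83.9) and PRDX5 (83.8) came next, and this middle order was not stable between groups: in GFP-high FX1, TALDO1 stood at 122 and PRDX5 at 72.1 CPM per kb. GPX4 (65) was the most abundant glutathione-arm member. GSR (34.8), GLRX5 (31.8) and GPX1 (30.7 CPM per kb) followed in an order that changed by group: GLRX5 stood above GSR in GFP-high DMSO (38.7 against 25.8) and below it in GFP-low FX1 (26.4 against 41.7). TXNRD2, MGST3 and GSTZ1 were the lowest tested members besides GSTP1, at 1.36, 1.42 and 1.68 CPM per kb, with an order that differed between groups. The order depends on the gene models: the deposited model of SOD2 has 18144 exon bases and takes in the SOD2-OT1 locus, so its 16.3 CPM per kb is uncertain.

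Glutathione synthesis starts with GCLC, the catalytic subunit of glutamate-cysteine ligase (ENSG00000001084.13, hg38 chr6:53497341-53616970, minus strand). GCLC measured 39.9, 42.8 and 39.7 CPM in GFP-high DMSO, 76.8, 76.3 and 73.9 in GFP-high FX1, 36.3, 32.9 and 39.1 in GFP-low DMSO and 64.6, 68.3 and 63.5 in GFP-low FX1. Every FX1 library lay above every DMSO library. The log2 change was 0.89 (SE 0.039, adjusted p = 3.5e-59) in GFP-high cells and 0.87 (SE 0.04, adjusted p = 1.6e-55) in GFP-low cells. The difference between these changes was -0.02 (SE 0.056, adjusted p = 0.85).

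GSS, glutathione synthetase, which completes the peptide, changed less. It went from 24.5, 23.6 and 25 CPM to 28.5, 25.8 and 30.3 in GFP-high cells, and from 26.5, 29 and 30.8 to 39.8, 35.5 and 37.8 in GFP-low cells. The FX1 libraries lay above the DMSO libraries of their gate, by a log2 change of 0.22 (SE 0.055, adjusted p = 0.00024) and 0.4 (SE 0.051, adjusted p = 6.3e-13). With a trend on GC content and gene length removed, these became 0.13 and 0.24.

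GSR, glutathione reductase, returns oxidised glutathione to its thiol form with NADPH (ENSG00000104687.14, chr8:30678066-30727846, minus strand). GSR measured 91.9, 93 and 94.3 CPM in GFP-high DMSO, 168, 165 and 160 in GFP-high FX1, 93.9, 95.8 and 92.2 in GFP-low DMSO and 153, 149 and 148 in GFP-low FX1. The DMSO groups overlapped with each other and the FX1 groups did not overlap with them. GSR rose by 0.82 (log2, SE 0.026, adjusted p = 2.7e-87) in GFP-high cells and by 0.68 (SE 0.026, adjusted p = 6.6e-72) in GFP-low cells. The rise was smaller in GFP-low cells by 0.14, an interaction of -0.14 (SE 0.036, adjusted p = 0.00067).

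The glutathione peroxidases did not move together. GPX1, which reduces hydrogen peroxide (ENSG00000233276.8, chr3:49357176-49358353, minus strand), measured 21.8, 23.8 and 23.1 CPM in GFP-high DMSO, 40.4, 40 and 41.1 in GFP-high FX1, 35.6, 35.7 and 35.7 in GFP-low DMSO and 46.6, 46.3 and 44 in GFP-low FX1. The 4 groups were thus ordered without overlap, with GFP-high DMSO lowest. GPX1 rose by 0.82 (SE 0.049, adjusted p = 9.8e-41) in GFP-high cells and by 0.36 (SE 0.044, adjusted p = 1.1e-13) in GFP-low cells. After removal of the GC and length trend its rise in GFP-low cells was 0.04 (adjusted p = 0.39), no longer called.

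GPX4, which reduces lipid peroxides in membranes and restrains ferroptosis, measured 139, 137 and 140 CPM in GFP-high DMSO and 122, 121 and 124 in GFP-high FX1, a log2 change of -0.17 (SE 0.025, adjusted p = 6.3e-11). In GFP-low cells it measured 136, 134 and 126 CPM with DMSO and 130, 133 and 132 with FX1, and the groups overlapped (change -0.01, 95% interval -0.06 to 0.04). With the trend removed GPX4 was lower in both gates, by -0.31 and -0.27.

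Among the glutathione transferases, GSTK1 and GSTO1 rose and GSTZ1 fell in both gates. GSTK1, the kappa-class form of mitochondria and peroxisomes, rose by 0.44 (SE 0.04) in GFP-high and by 0.52 (SE 0.038) in GFP-low cells (adjusted p = 7.2e-23 and 1.1e-31). GSTO1, the omega-class form, rose by 0.27 (SE 0.091, adjusted p = 0.0051) and 0.37 (SE 0.091, adjusted p = 0.00014). GSTZ1, which isomerises maleylacetoacetate in tyrosine breakdown, measured 17.1, 17.2 and 18.1 CPM in GFP-high DMSO, 8.94, 9.77 and 9.42 in GFP-high FX1, 18.3, 16.4 and 18.3 in GFP-low DMSO and 12.1, 12.4 and 10.8 in GFP-low FX1.

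All 6 FX1 libraries were below all 6 DMSO libraries for GSTZ1, and the GFP-high FX1 libraries were the lowest. GSTZ1 fell by 0.9 (SE 0.077, adjusted p = 1.1e-24) and by 0.57 (SE 0.073, adjusted p = 7.4e-13). MGST3, a microsomal transferase, was lower in GFP-high cells (-0.26, SE 0.084, adjusted p = 0.004; -0.16 and not called with the trend removed) and near its DMSO level in GFP-low cells (0.01, 95% interval -0.15 to 0.16).

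The glutaredoxins use glutathione to reduce protein disulphides. GLRX2 (mitochondrial) measured 24.3, 24.9 and 26.2 CPM in GFP-high DMSO, 33.7, 33.4 and 31.9 in GFP-high FX1, 22, 22 and 20.6 in GFP-low DMSO and 22.3, 23.7 and 22.1 in GFP-low FX1. It was highest in GFP-high FX1, and its rise there was 0.39 (SE 0.053, adjusted p = 6.6e-12), against 0.07 (adjusted p = 0.25) in GFP-low cells; the difference of -0.32 (SE 0.078, adjusted p = 0.00035) became -0.06 and was not called with the trend removed, where GLRX2 was higher in both gates (0.41 and 0.35). RO60, with a mean of 280 CPM, shares 481 exon bases (7.75% of those of GLRX2) on the opposite strand.

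GLRX3, which works in iron delivery, rose by 0.15 (SE 0.026, adjusted p = 4.6e-08) in GFP-high cells and had a change of -0.03 (adjusted p = 0.27) in GFP-low cells. GLRX, the cytosolic glutaredoxin, was not called in GFP-high cells (0.07, adjusted p = 0.23) and fell by 0.25 (SE 0.052, adjusted p = 4.5e-06) in GFP-low cells. GLRX5, of mitochondrial iron-sulphur cluster assembly, fell by 0.28 (SE 0.031, adjusted p = 6.8e-16) and by 0.19 (SE 0.033, adjusted p = 1.1e-07). With the trend removed the second of these was -0.05 and not called.

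In the thioredoxin chain, the cytosolic disulphide reductase TXN (ENSG00000136810.13, chr9:110243810-110256507, minus strand) measured 177, 173 and 181 CPM in GFP-high DMSO, 246, 250 and 250 in GFP-high FX1, 146, 149 and 145 in GFP-low DMSO and 188, 187 and 185 in GFP-low FX1. None of the 4 groups overlapped, and GFP-low FX1 lay only just above GFP-high DMSO. TXN rose by 0.49 (SE 0.02, adjusted p = 4.1e-66) and by 0.34 (SE 0.021, adjusted p = 7.1e-40). The second was 0.6 with the trend removed.

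TXN2, the mitochondrial thioredoxin, had overlapping groups in GFP-high cells (-0.01, 95% interval -0.07 to 0.06) and a small rise of 0.14 (SE 0.033, adjusted p = 7.4e-05) in GFP-low cells. That rise was 0.00 with the trend removed and was not called. TXNRD2, the mitochondrial thioredoxin reductase (ENSG00000184470.21, chr22:19875517-19941820, minus strand), measured 5.31, 6.85 and 7.48 CPM in GFP-high DMSO, 13.2, 10 and 11.5 in GFP-high FX1, 8.98, 9.58 and 11.2 in GFP-low DMSO and 17.9, 15.6 and 16.6 in GFP-low FX1. The FX1 libraries lay above the DMSO libraries in each gate, while GFP-high FX1 and GFP-low DMSO overlapped.

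The log2 change of TXNRD2 was 0.82 (SE 0.094, adjusted p = 1.3e-14) in GFP-high and 0.77 (SE 0.082, adjusted p = 2.5e-16) in GFP-low cells. Its transcripts are GC-rich, and with the trend removed the change in GFP-low cells was 0.36 (adjusted p = 5.6e-05).

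The peroxiredoxins, most of which reduce hydrogen peroxide with electrons from thioredoxin, included the member with the highest level per kilobase. PRDX1 (ENSG00000117450.15, chr1:45510914-45542732, minus strand) measured 408, 417 and 412 CPM in GFP-high DMSO, 683, 687 and 671 in GFP-high FX1, 389, 393 and 392 in GFP-low DMSO and 589, 578 and 588 in GFP-low FX1. No groups overlapped. PRDX1 rose by 0.72 (SE 0.014, adjusted p = 1.9e-128) and by 0.58 (SE 0.014, adjusted p = 1.9e-107), and the rise was smaller in GFP-low cells (interaction -0.14, SE 0.02, adjusted p = 4.3e-10). MMACHC, on the opposite strand with a mean of 22.5 CPM, shares 501 exon bases, which is 29.8% of those of PRDX1.

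PRDX3, the mitochondrial peroxiredoxin (ENSG00000165672.7, chr10:119167720-119178812, minus strand), showed a different pattern. It measured 183, 174 and 178 CPM in GFP-high DMSO, 177, 177 and 178 in GFP-high FX1, 195, 196 and 200 in GFP-low DMSO and 138, 137 and 139 in GFP-low FX1. The GFP-high groups overlapped, GFP-low DMSO was highest and GFP-low FX1 lowest. The change was -0.01 (95% interval -0.05 to 0.04) in GFP-high cells and -0.51 (SE 0.022, adjusted p = 7.7e-64) in GFP-low cells, and the interaction was -0.51 (SE 0.03, adjusted p = 3.7e-40). With the trend removed the 2 changes were 0.12 and -0.33, and the interaction was -0.45.

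PRDX2, a cytosolic form, rose by 0.14 (SE 0.022, adjusted p = 4.8e-09) and 0.09 (SE 0.022, adjusted p = 6.6e-05), the latter -0.06 with the trend removed. PRDX4, the form of the endoplasmic reticulum, rose by 0.14 (SE 0.042, adjusted p = 0.0014) and by 0.46 (SE 0.043, adjusted p = 2.5e-21), more in GFP-low cells (interaction 0.31, SE 0.06, adjusted p = 3.4e-06). PRDX5 measured 69.3, 74.6 and 70.5 CPM in GFP-high DMSO and 61.1, 61.7 and 63.3 in GFP-high FX1, a fall of -0.21 (SE 0.034, adjusted p = 6.4e-09). In GFP-low cells its groups overlapped, at 77, 77.6 and 77.8 against 77.1, 78.6 and 75.7 CPM; with the trend removed it was lower there too, at -0.28.

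PRDX6, the 1-cysteine form, rose by 0.19 (SE 0.025, adjusted p = 1.6e-12) in GFP-high cells. The rise of 0.07 (SE 0.026, adjusted p = 0.014) in GFP-low cells was lost with DESeq2, with mitochondrial and very abundant genes left out before scaling, without any 1 of the 3 GFP-high DMSO libraries and without GFP-low FX1 replicate 1.

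Of the enzymes that remove superoxide and hydrogen peroxide directly, both dismutases rose. SOD1, the copper and zinc form of the cytosol, measured 166, 170 and 161 CPM in GFP-high DMSO, 222, 221 and 210 in GFP-high FX1, 134, 137 and 137 in GFP-low DMSO and 189, 186 and 186 in GFP-low FX1. No groups overlapped. Its log2 changes of 0.39 (SE 0.021, adjusted p = 4.2e-47) and 0.46 (SE 0.022, adjusted p = 3.6e-55) differed by 0.07 (SE 0.031, adjusted p = 0.065), not a called difference. SOD2, the manganese form of mitochondria, measured 274, 274 and 282 CPM in GFP-high DMSO, 360, 366 and 359 in GFP-high FX1, 260, 268 and 259 in GFP-low DMSO and 286, 281 and 281 in GFP-low FX1.

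The rise of SOD2 was 0.39 (SE 0.017, adjusted p = 3e-61) in GFP-high cells and 0.11 (SE 0.017, adjusted p = 6.5e-09) in GFP-low cells. The interaction was -0.28 (SE 0.024, adjusted p = 3.3e-23). The rise in GFP-low cells was 0.22 with the trend removed, 0.07 with mitochondrial and very abundant genes left out and 0.06 without any 1 of the GFP-high DMSO libraries. WTAP (mean 180 CPM) and ACAT2 (156 CPM) overlap exons of SOD2 on the opposite strand. CAT, catalase of peroxisomes, was not called in GFP-high cells (0.05, adjusted p = 0.24) and was lower by -0.12 (SE 0.038, adjusted p = 0.0026) in GFP-low cells, a call lost with the trend removed.

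**Figure D2:**
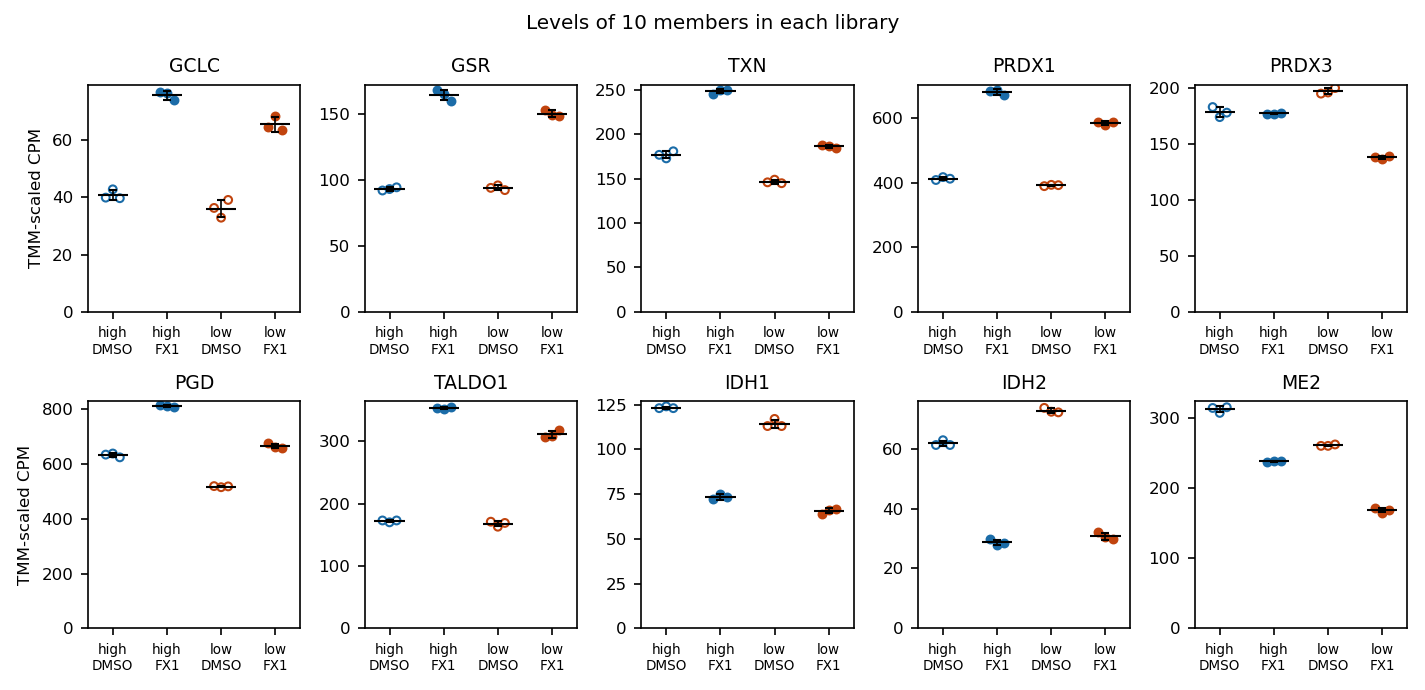
TMM-scaled CPM of 10 members in each library (points), with the mean and SD of the 3 libraries of each group (bars); open points are DMSO, filled points FX1, blue GFP-high and orange GFP-low. GCLC, GSR, TXN, PRDX1, PGD and TALDO1 rise with FX1 in both gates, IDH1, IDH2 and ME2 fall in both, and PRDX3 falls from 195 to 200 CPM to 137 to 139 CPM in GFP-low cells while its GFP-high groups overlap.

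In the oxidative branch of the pentose phosphate pathway, PGD, 6-phosphogluconate dehydrogenase, makes NADPH directly (ENSG00000142657.21, chr1:10398592-10420511, plus strand). PGD measured 634, 638 and 624 CPM in GFP-high DMSO, 814, 813 and 809 in GFP-high FX1, 519, 515 and 518 in GFP-low DMSO and 675, 661 and 659 in GFP-low FX1. No groups overlapped. The change was the same in both gates to 2 decimals, 0.36 (SE 0.013, adjusted p = 2.9e-74) and 0.36 (SE 0.014, adjusted p = 5.6e-73), with a 95% interval of -0.04 to 0.04 for their difference. PGLS, the lactonase one step upstream, rose by 0.34 (SE 0.059, adjusted p = 8.2e-08) and 0.47 (SE 0.056, adjusted p = 8.8e-15), or 0.2 in each gate with the trend removed.

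In the non-oxidative branch, TALDO1, transaldolase (ENSG00000177156.11, chr11:747415-765012, plus strand), measured 173, 170 and 173 CPM in GFP-high DMSO, 353, 352 and 355 in GFP-high FX1, 171, 163 and 169 in GFP-low DMSO and 307, 309 and 318 in GFP-low FX1. The DMSO groups overlapped and each FX1 group stood apart. TALDO1 rose by 1.04 (SE 0.018, adjusted p = 6.1e-138) in GFP-high cells, the largest rise of all members there, and by 0.89 (SE 0.019, adjusted p = 6.3e-123) in GFP-low cells, close to GCLC. In GFP-low cells GCLC (0.96) stood above TALDO1 (0.8) with the trend removed. The rise was smaller in GFP-low cells (interaction -0.15, SE 0.026, adjusted p = 1e-06).

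TKT, transketolase, works beside it and measured 394, 390 and 387 CPM in GFP-high DMSO, 447, 445 and 438 in GFP-high FX1, 355, 358 and 351 in GFP-low DMSO and 451, 452 and 454 in GFP-low FX1. The FX1 groups were highest, and the changes were 0.19 (SE 0.015, adjusted p = 1.1e-26) and 0.35 (SE 0.015, adjusted p = 6e-62). The first turned sign and was not called with the trend removed (-0.02, adjusted p = 0.28), and the second was 0.03 (adjusted p = 0.037).

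The 2 enzymes that interconvert pentose phosphates differed. RPIA, the isomerase, had small rises of 0.09 (SE 0.041, adjusted p = 0.034) and 0.18 (SE 0.042, adjusted p = 4.9e-05); the first was lost with DESeq2, with a filter of at least 50 counts and without GFP-high DMSO replicate 2 or 3 or GFP-high FX1 replicate 2. RPE, the epimerase, measured 126, 122 and 121 CPM in GFP-high DMSO, 120, 120 and 122 in GFP-high FX1, 112, 115 and 114 in GFP-low DMSO and 83.2, 84 and 85.7 in GFP-low FX1. Only the GFP-low FX1 libraries lay outside the range of 112 to 126 CPM.

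RPE changed by -0.03 (95% interval -0.08 to 0.02) in GFP-high cells and fell by 0.44 (SE 0.028, adjusted p = 2.4e-38) in GFP-low cells, an interaction of -0.41 (SE 0.038, adjusted p = 6.6e-21). With the trend removed the fall was -0.1 and the interaction -0.17, both still called. KANSL1L, on the opposite strand with a mean of 20.5 CPM, shares 840 exon bases, 23.8% of those of RPE.

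All 4 tested members among the other dehydrogenases fell. IDH1, the cytosolic and peroxisomal isocitrate dehydrogenase (ENSG00000138413.14, chr2:208236229-208266074, minus strand), measured 123, 124 and 123 CPM in GFP-high DMSO, 72.1, 74.9 and 73.1 in GFP-high FX1, 113, 117 and 113 in GFP-low DMSO and 64, 66 and 66.8 in GFP-low FX1. No groups overlapped. IDH1 fell by 0.75 (SE 0.029, adjusted p = 1.7e-70) and by 0.81 (SE 0.03, adjusted p = 3.3e-74), with no called difference between gates (-0.06, SE 0.041, adjusted p = 0.32).

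IDH2, its mitochondrial counterpart (ENSG00000182054.10, chr15:90083045-90102477, minus strand), measured 61.2, 62.8 and 61.2 CPM in GFP-high DMSO, 29.7, 27.9 and 28.5 in GFP-high FX1, 73.6, 72.3 and 72.1 in GFP-low DMSO and 32, 30.4 and 29.8 in GFP-low FX1. The FX1 libraries of both gates, at 27.9 to 32 CPM, lay far below both DMSO groups. IDH2 fell by 1.11 (SE 0.042, adjusted p = 7e-72) and by 1.23 (SE 0.04, adjusted p = 1.9e-83), the largest falls among members besides GSTP1. The difference between gates was -0.13 and not called. With the trend removed it was -0.22 (SE 0.059, adjusted p = 0.0014) and called.

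ME2, the mitochondrial malic enzyme (ENSG00000082212.13, chr18:50879080-50954257, plus strand), measured 314, 307 and 315 CPM in GFP-high DMSO, 237, 238 and 239 in GFP-high FX1, 260, 260 and 262 in GFP-low DMSO and 171, 165 and 169 in GFP-low FX1. The groups did not overlap, and GFP-low FX1 was lowest. ME2 fell by 0.39 (SE 0.018, adjusted p = 4.2e-58) and by 0.63 (SE 0.019, adjusted p = 6.1e-91), more in GFP-low cells (interaction -0.24, SE 0.026, adjusted p = 1.6e-16).

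NNT, the transhydrogenase of the inner mitochondrial membrane, measured 57.5, 52 and 56.4 CPM in GFP-high DMSO, 42.1, 41.3 and 40.7 in GFP-high FX1, 56.4, 57 and 55.3 in GFP-low DMSO and 36.9, 40.4 and 36.6 in GFP-low FX1. The DMSO groups overlapped and every FX1 library was below them. NNT fell by 0.41 (SE 0.041, adjusted p = 1.1e-19) and by 0.57 (SE 0.041, adjusted p = 9.9e-32). The opposite-strand gene NNT-AS1 (mean 25.8 CPM) shares 295 of its exon bases.

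The falls of IDH1, IDH2, ME2, NNT and GSTZ1 and the rises of GCLC, GSR, TXN, TXNRD2, PRDX1, SOD1, PGD and TALDO1 kept their direction and call in both gates with the GC and length trend removed. For members whose value moved by over 1.5 times and is not given above, that value in GFP-high cells was 0.34 for PRDX6, 0.44 for GSTO1, 0.19 for RPIA, 0.08 for PRDX2, -0.35 for PRDX5 and -0.14 for GLRX5. In GFP-low cells it was 0.24 for PRDX6 and -0.16 for GLRX, and GLRX2 (0.35) and GLRX3 (0.07) were then called higher. In GFP-high cells GLRX (0.15) and CAT (0.15) were then called higher. Against a floor of 1.5-fold in place of 0 (glmTreat), the members called higher were PRDX1, GPX1, GCLC, GSR, TALDO1 and TXNRD2 in GFP-high cells, and GCLC, GSR, TALDO1 and TXNRD2 in GFP-low cells. Those called lower, leaving GSTP1 aside, were IDH1, IDH2 and GSTZ1 in GFP-high cells and IDH1, IDH2 and ME2 in GFP-low cells.

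**Figure D3:**
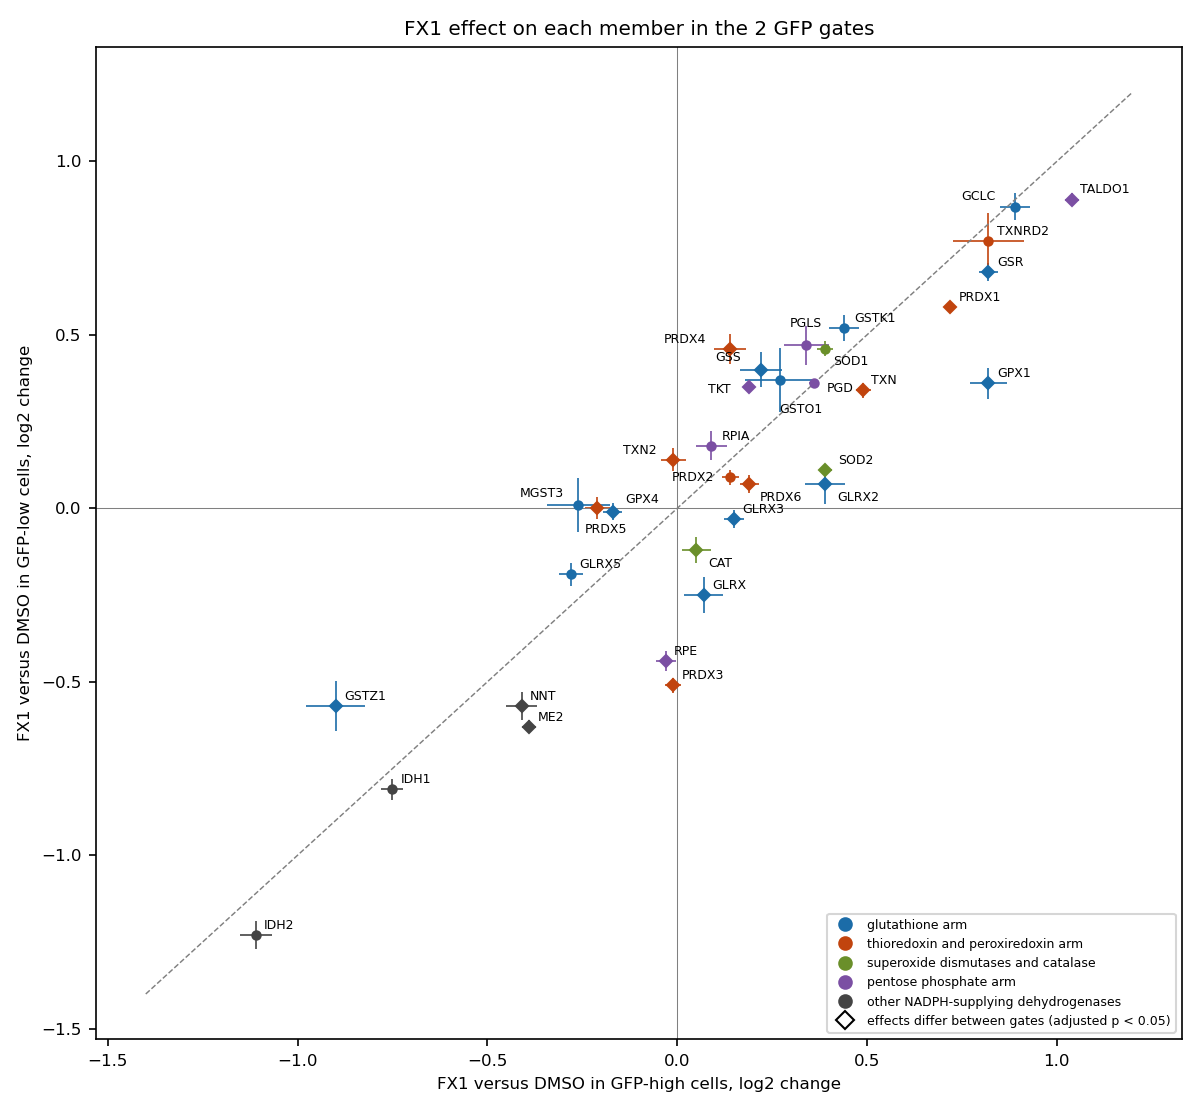
Log2 change with FX1 in GFP-high cells (horizontal) against that in GFP-low cells (vertical) for the 35 tested members without GSTP1, with bars of 1 SE, coloured by arm; the dashed line marks equal changes and diamonds mark members whose changes differed between gates. TALDO1 (1.04 and 0.89) and IDH2 (-1.11 and -1.23) lie at the ends, and PRDX3 and RPE lie near 0 on the horizontal axis and below 0 on the vertical one.

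Between the gates under DMSO, 9 members were higher in GFP-low cells, 18 lower and 9 were not called, beside 46.1% of all genes called (21.7% higher, 24.4% lower). The groups did not overlap in 28 members, against 51.6% of all genes, and the median was -0.07 without GSTP1, against 0.03 over all genes. Of the 12809 genes with at least 50 counts in 3 libraries, 3840 were higher and 3909 lower. No member passed the 1.5-fold floor. GPX1 had the largest difference, 0.63 (SE 0.051, adjusted p = 3.9e-26), followed by TXNRD2 at 0.58 (SE 0.1, adjusted p = 1.4e-07). With the trend removed GPX1 was higher by 0.4.

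Lower in GFP-low DMSO cells were GLRX5 by 0.36 (SE 0.032, adjusted p = 9.4e-23), PGD at -0.29 (SE 0.014, adjusted p = 1.4e-54), SOD1 at -0.29 (SE 0.023, adjusted p = 7.1e-27), TXN at -0.27 (SE 0.022, adjusted p = 1.3e-25), PRDX4 at -0.27 (SE 0.045, adjusted p = 2.5e-08) and ME2 at -0.26 (SE 0.018, adjusted p = 6.4e-33; -0.16 with the trend removed). PGD thus held 515 to 519 CPM in GFP-low DMSO libraries against 624 to 638 in GFP-high DMSO. GSR did not differ beyond its spread (0.02, 95% interval -0.04 to 0.07). The lower values of GCLC (-0.19), GLRX2 (-0.22), SOD2 (-0.08) and IDH1 (-0.11) were not called with the trend removed. The differences of PRDX5 (0.11), PGLS (0.16), RPE (-0.11) and GLRX3 (-0.06) turned sign.

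Between the gates under FX1, 10 members were higher in GFP-low cells, 21 lower (20 without GSTP1) and 5 were not called. Of all genes 56.9% were called, 30.2% higher and 26.7% lower. The groups did not overlap in 32 members (31 without GSTP1), against 61.1% of all genes. The median was -0.12 without GSTP1, against 0.08 over all genes. Of the 12809 genes with at least 50 counts in 3 libraries, 5190 were higher and 4223 lower. GLRX2 (-0.54, SE 0.052, adjusted p = 3.6e-20), RPE (-0.52, SE 0.027, adjusted p = 1.5e-49) and ME2 (-0.5, SE 0.019, adjusted p = 2.7e-72) had the largest negative differences.

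TXN (-0.41, SE 0.019, adjusted p = 1e-55), PRDX3 and SOD2 (each -0.36) followed among the lower members. The higher members were led by TXNRD2 (0.53, SE 0.077, adjusted p = 5.7e-10; 0.18 and not called with the trend removed), MGST3 (0.43, SE 0.079, adjusted p = 5.3e-07) and GSS (0.42, SE 0.05, adjusted p = 1.4e-14). With the trend removed, 5 members were higher and 22 lower, GSTP1 among the lower. GLRX2 was then at -0.16, RPE at -0.13, ME2 at -0.3, PRDX3 at -0.21 and SOD2 at -0.23, while GPX1, GPX4, NNT and others turned sign.

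**Figure D4:**
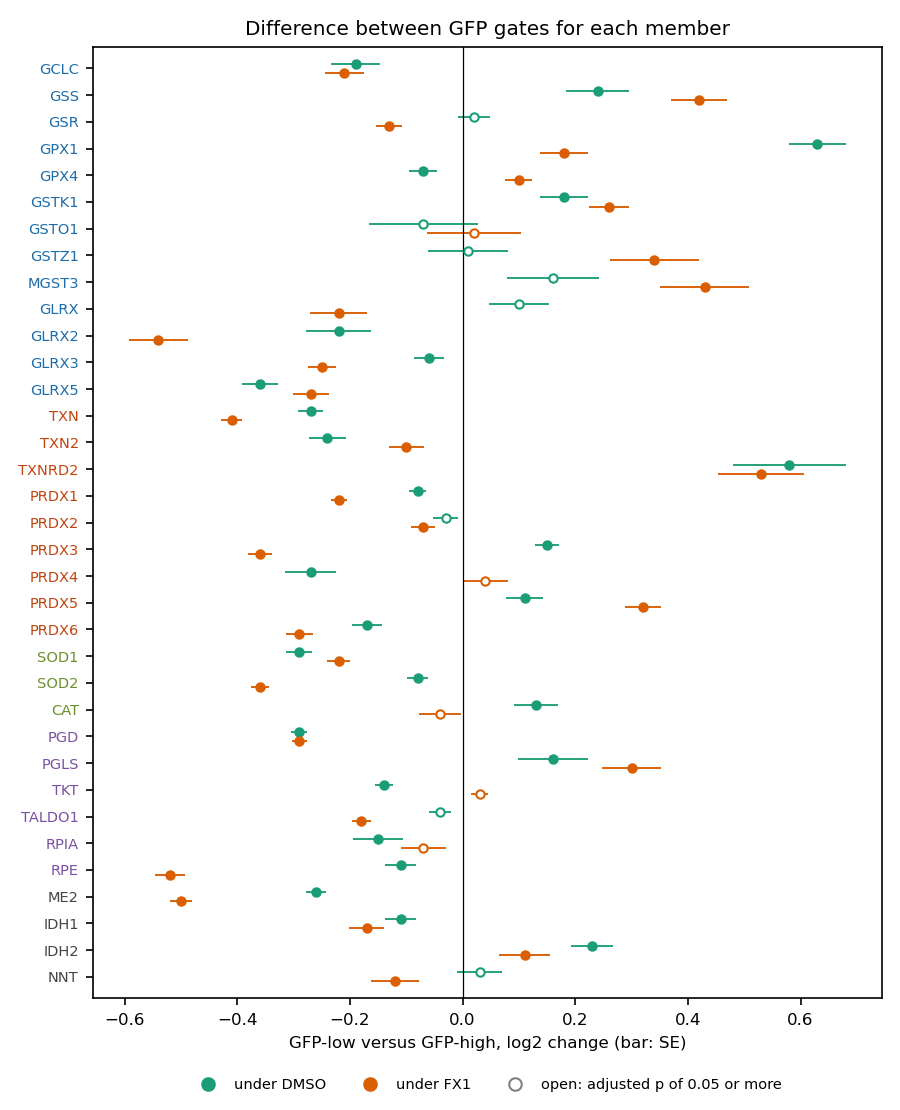
Log2 difference of GFP-low from GFP-high cells for the 35 tested members without GSTP1, under DMSO (green) and under FX1 (orange), with bars of 1 SE; open points did not pass the adjusted threshold and gene names are coloured by arm. GPX1 stands at 0.63 under DMSO and 0.18 under FX1, PRDX3 changes sign from 0.15 to -0.36, and PGD stands at -0.29 in both.

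The FX1 change itself differed between gates for 22 members, 7 with a more positive and 15 with a more negative change in GFP-low cells, beside 31.3% of all genes (14.8% and 16.5%). Over all genes this split was 2636 to 2947, and 2014 to 3617 when the scaling left out mitochondrial genes and any gene with over 1% of the counts. Over the 12809 genes with at least 50 counts in 3 libraries it was 2983 to 2622, a larger share called. PRDX3 (-0.51), GPX1 (-0.46) and RPE (-0.41) had the largest negative interactions and GSTZ1 (0.33) and PRDX4 (0.31) the largest positive ones. The GSTZ1 difference was not called with the trend removed (0.25, adjusted p = 0.068), nor without GFP-high DMSO replicate 3 or GFP-low DMSO replicate 2. With the GC and length trend removed, 3 were more positive and 16 more negative. Both FX1 comparisons enter this test, and each has its own DMSO group.

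The partners of the members that belong to the same pathways were counted from a list of 59 further genes, of which 43 were tested. With FX1 in GFP-high cells 15 were higher and 18 lower, beside 33.8% and 34.6% of all genes. In GFP-low cells 14 were higher and 22 lower, beside 33.7% and 34.3%. The share of risers was thus near that of all genes, and the share of fallers was larger in both gates, which was not tested. By pathway, 6 of 18 other glutathione genes were higher and 8 lower in GFP-high cells, and 4 higher and 10 lower in GFP-low cells. For the 15 other thioredoxin and superoxide genes these counts were 6 and 4, then 7 and 6, and for the 10 other NADPH-supplying genes 3 and 6 in each gate.

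Among the genes named here, TXNRD1 and GCLM rose most in GFP-high cells. TXNRD1, the cytosolic thioredoxin reductase that recharges TXN, measured 230, 229 and 228 CPM in GFP-high DMSO, 833, 846 and 828 in GFP-high FX1, 202, 200 and 201 in GFP-low DMSO and 679, 680 and 675 in GFP-low FX1. Its log2 changes were 1.87 (SE 0.015, adjusted p = 1.2e-216) and 1.76 (SE 0.015, adjusted p = 3.4e-208), above those of every member.

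GCLM, the modifier subunit that pairs with GCLC, measured 53, 53.6 and 50 CPM in GFP-high DMSO, 131, 128 and 125 in GFP-high FX1, 45.6, 48 and 49.3 in GFP-low DMSO and 82.4, 83.1 and 83.6 in GFP-low FX1. Its rise was 1.29 (SE 0.032, adjusted p = 2.1e-107) in GFP-high and 0.8 (SE 0.034, adjusted p = 3.8e-63) in GFP-low cells, an interaction of -0.49 (SE 0.047, adjusted p = 1.5e-19), whereas GCLC had no called interaction. MSRB1, a methionine sulphoxide reductase, rose by 1.21 (SE 0.062) and 0.97 (SE 0.062; adjusted p = 5.5e-50 and 1.1e-37).

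Among the partners that fell, TXNIP, which binds and inhibits thioredoxin, went from 160, 158 and 156 CPM to 80.7, 76.9 and 79.2 in GFP-high cells and from 168, 171 and 170 to 82, 82.2 and 79 in GFP-low cells. The FX1 libraries of both gates overlapped each other and lay below all DMSO libraries, with log2 changes of -1 (SE 0.026, adjusted p = 2e-102) and -1.06 (SE 0.026, adjusted p = 6.7e-109). CHAC1, which breaks down glutathione, fell by 1.18 (SE 0.077, adjusted p = 1.3e-34) and 1.03 (SE 0.072, adjusted p = 1.1e-31). GGCT, also of the glutathione genes outside the member list, fell by 0.9 (SE 0.035, adjusted p = 1.2e-69) and 0.92 (SE 0.039, adjusted p = 2.6e-62).

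H6PD, which makes NADPH inside the endoplasmic reticulum, fell by 0.76 (SE 0.045, adjusted p = 8.5e-42) and 0.43 (SE 0.04, adjusted p = 6.1e-22), the latter -0.74 with the trend removed. SLC25A40, a mitochondrial glutathione carrier, fell by 0.56 (SE 0.035, adjusted p = 1.1e-38) and 0.97 (SE 0.037, adjusted p = 1.3e-71), the latter -0.59 with the trend removed. In the pairs of a catalytic and a modifier or recharging partner, the partner outside the member list had the larger rise for TXN with TXNRD1 in both gates and for GCLC with GCLM in GFP-high cells; these differences between genes were not tested.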

How the data were processed

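RNA from 12 Raji libraries was extracted with an RNeasy Plus Micro kit and depleted of ribosomal RNA with a KAPA HyperPrep RiboErase kit, per the labels' protocols. FastQC, STAR, featureCounts of Subread, R 4.2.1 and hg38 are named in the submitters' processing notes; annotation release and strand setting are not given in the sources used here, so overlapping, antisense and near-identical genes are uncertain. Deposited per gene, over combined exons, are raw read counts, per the file headers. Of 60710 lines, 3 forming 1 broken gene record were left out, and 0 count columns lacked a sample. Symbols were found for 60695 of 60707 genes, 233 of them from GENCODE 29 only. Total counts ran from 20454028 to 42556661; without molecular identifiers, PCR copies cannot be told from separate molecules.

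The test was edgeR 4.0.16 under R 4.3.3: filterByExpr (17859 genes kept), TMM scaling, a robust quasi-likelihood fit with a term per group over all 12 libraries (8 residual degrees of freedom), Benjamini-Hochberg adjustment over all tested genes and a threshold of 0.05. Common biological variation was 1.67%. Changes are on the log2 scale with standard errors; levels between genes are compared per kilobase of the deposited exon length. The script was tested on simulated counts with changes planted in a small set of genes in GFP-low FX1 alone. For FX1 in GFP-low cells it recovered 63.9% of 1.2-fold and 96.8% of 2-fold changes. Scaling under changes as wide as those in the real libraries was not tested. Members and lists were chosen with earlier results of these data known. All 39 members are reported; of the other pathway genes, up to 4 called risers and 4 fallers with the largest change per FX1 comparison and a mean log2 CPM of at least 2 are named, and TXNRD1, GCLM and TXNIP in any case. A gene that this rule takes is not reported here singly and still counts in the tests and lists. Alternatives were DESeq2 1.42.0, its size factors in edgeR, a minimum of 50 counts in 3 libraries, no filter on low counts, a fit to the compared groups alone, a replicate block, removal before scaling of 38 genes that are mitochondrial or above 1% of a library, a 1.5-fold floor, a smooth trend on GC content and length per library entered as offsets (mgcv 1.9.3; values for 17557 genes, 98.3%), and each library left out. Promoters are from RefSeq.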

Additional observations from a re-analysis of the deposited data

Results flagged for a closer look

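These genes were flagged because the FX1 effect differed between the GFP gates by a test of the difference itself (edgeR quasi-likelihood interaction, adjusted p under 0.05). Values are the log2 FX1 effect in GFP-low cells minus that in GFP-high cells.

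In the glutathione arm, more negative effects in GFP-low cells were seen for GSR (-0.14), GPX1 (-0.46), GLRX (-0.32), GLRX2 (-0.32) and GLRX3 (-0.18), and more positive ones for GSS (0.18), GPX4 (0.17) and GSTZ1 (0.33). In the thioredoxin and peroxiredoxin arm, TXN (-0.15), PRDX1 (-0.14), PRDX3 (-0.51) and PRDX6 (-0.12) were more negative and TXN2 (0.14), PRDX4 (0.31) and PRDX5 (0.2) more positive. SOD2 (-0.28) and CAT (-0.17) were more negative.

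Among pentose phosphate genes, TALDO1 (-0.15) and RPE (-0.41) were more negative and TKT (0.16) more positive. ME2 (-0.24) and NNT (-0.16) fell more in GFP-low cells. Outside the member list, GCLM (-0.49), MSRB1 (-0.23), SLC25A40 (-0.41) and TXNRD1 (-0.11) were more negative and H6PD (0.32) more positive.

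Once the trend in GC content and length was taken out, the differences of GSS (0.1), GPX4 (0.03), GSTZ1 (0.25), GLRX2 (-0.06), TXN2 (0.06), PRDX5 (0.07), NNT (-0.03) and SLC25A40 (-0.09) were not called. Those of MGST3 (0.3), PRDX2 (-0.13), IDH2 (-0.22) and PGD (-0.06), not flagged above, were then called.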

How the results depend on the processing

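With the replicate number as a block, members called higher and lower stayed 21 and 10, 20 and 11, 9 and 18, 10 and 21, and 7 and 15 in the 5 comparisons (FX1 in GFP-high, FX1 in GFP-low, gates under DMSO, gates under FX1, interaction), and the block changed no call of a member. The numbers do not pair the libraries: same-numbered libraries of different groups correlated at -0.037 to 0.018 (18 pairs, 10467 genes) in their deviations, others at -0.031 to 0.035, and 2 of 12 libraries correlated best with their own number. Against a 1.5-fold floor the counts were 6 and 4, 4 and 4, and 0 and 0 in each of the other 3, where the threshold itself asks for more. Counts of members in this section include GSTP1 where it was called.

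Removing the GC and length trend left 5 members higher between gates under FX1 (6 with the replicate block) and 3 with a more positive interaction (2 with the block). It turned the sign of PRDX3 (0.12), TKT (-0.02) and RPE (0.07) for FX1 in GFP-high cells, and of GLRX3 (0.07) and PRDX2 (-0.06; -0.05 with the block) in GFP-low cells. Between gates under DMSO it turned GLRX3 (0.04), PRDX5 (-0.13), PGLS (-0.01), RPE (0.04), SLC25A40 (0.13) and, with the block only, GCLM (0.00). Under FX1 it turned GPX1 (-0.2), GPX4 (-0.23), PRDX5 (-0.06), PGLS (-0.01), TKT (-0.21), IDH2 (-0.09), NNT (0.11) and SLC25A40 (0.05; 0.04 with the block), and in the interaction PGD (-0.06). Where no value is given for the block, it was the same to 2 decimals. The cause was not tested.

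With each library left out in turn, members higher and lower were 20 to 21 and 10 in every case, 19 to 20 and 11 to 12, 8 to 9 and 16 to 19, 9 to 10 and 19 to 23, and 4 to 7 and 14 to 17. The 4 came without GFP-high DMSO replicate 2, where GSS, TXN2 and PRDX5 were no longer called. Interaction calls of GSS, TXN2, NNT and GSTZ1 and gate calls of GLRX3, GPX4 and PGLS under DMSO and of IDH2 under FX1 were each lost in several other settings. PRDX2 and IDH2 gained an interaction call without any 1 of the GFP-high DMSO libraries. With mitochondrial and very abundant genes left out, PRDX2, IDH1 and IDH2 gained it. MGST3, GLRX5 and SOD1 gained it with the filter of at least 50 counts.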
